A study of Mus musculus with 12 samples.

Results

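The cornified envelope genes were followed in skin papillomas of mice with and without Fos in the epidermis. The genes were taken by name: every probe of the array whose platform symbol started with Sprr or Lce, or was that of loricrin, filaggrin, involucrin, repetin, a transglutaminase of the epidermis or one of a list of further envelope proteins. The rule matched 40 probes, of which 38 had a value, and these stood for 31 of the 14709 named genes with a value. For Cdsn (corneodesmosin, an adhesive protein between corneocytes) the matching probe had no value. Of the 31 genes, 29 had values in at least 2 specimens of each group and were tested, and 28 of these had values in all 6 specimens. A specimen counted as measured where both of its arrays held a value. By this rule Sprr2f, with a value on 4 of 12 arrays, was measured in 1 specimen (2.43 in Fos-deficient specimen 6), and Sprr3, with a value on 3 arrays, likewise (1.84 in Fos-floxed specimen 3). Flg2, Hrnr, Crnn and Krtdap are in the list but were named on no probe.

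In all 6 mice the keratin 5 promoter drove active Sos, which loads Ras with GTP, in the basal keratinocytes, and every papilloma was taken from the tail. In the Fos-deficient group (specimens 6, 8 and 9) both Fos alleles were deleted in the epidermis, and in the Fos-floxed group (specimens 2, 3 and 5) both alleles were floxed and intact. The mice were of a mixed background of 129/Ola, C57BL/6, CBA, LVA and B6C3F1; the sources used here give neither their age nor the driver of the deletion. RNA of each papilloma was hybridised beside a purchased mouse reference RNA, a pool of cell lines, on a pair of 2-colour arrays with the dyes exchanged, and the mean of both arrays was 1 value. Each level below is such a log2 ratio, papilloma over reference RNA, and each difference is Fos-deficient minus Fos-floxed on the same scale.

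The cornified envelope replaces the plasma membrane of keratinocytes when they die and flatten into the outermost layer of the skin. Plakins and involucrin form a first scaffold under the membrane, transglutaminases cross-link further proteins to it, and loricrin, the small proline-rich (SPRR) proteins and the late cornified envelope (LCE) proteins make up much of its mass. Most genes of these proteins lie side by side in the epidermal differentiation complex, on chromosome 3 of the mouse. FOS pairs with JUN proteins to form AP-1, a transcription factor that binds TGACTCA, and AP-1 sites are known in the promoters of several envelope genes, involucrin and loricrin among them.

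The 250 bases before the start site are shown for 6 members, chosen because they hold that AP-1 motif and because the genes behind them stood at different ends of the comparison. Sprr2i and Sprr2k were lower in Fos-deficient papillomas, with groups that did not overlap, and Sprr2h was higher. For Sprr2d, Lor and Ivl the groups overlapped. Capitals mark TGACTCA or its reverse complement, TGAGTCA, and the sequences run 5′ to 3′ on the strand of the gene, as RefSeq gives them for GRCm38.p6. The windows are chr3:92407741-92407990 (plus strand) for Sprr2i, chr3:92432332-92432581 (plus) for Sprr2k, chr3:92385435-92385684 (plus) for Sprr2h, chr3:92338890-92339139 (plus) for Sprr2d, chr3:92083143-92083392 (minus) for Lor and chr3:92573736-92573985 (minus) for Ivl.
Sprr2i: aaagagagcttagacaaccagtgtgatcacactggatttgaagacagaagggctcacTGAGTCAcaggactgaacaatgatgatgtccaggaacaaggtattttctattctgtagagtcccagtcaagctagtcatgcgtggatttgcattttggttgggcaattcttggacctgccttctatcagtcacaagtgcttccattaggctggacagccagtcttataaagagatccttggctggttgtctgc
Sprr2k: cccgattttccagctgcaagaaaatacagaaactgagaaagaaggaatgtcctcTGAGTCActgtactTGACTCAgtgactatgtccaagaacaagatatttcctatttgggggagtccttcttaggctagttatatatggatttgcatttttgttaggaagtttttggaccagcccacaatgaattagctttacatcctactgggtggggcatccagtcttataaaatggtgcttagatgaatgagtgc
Sprr2h: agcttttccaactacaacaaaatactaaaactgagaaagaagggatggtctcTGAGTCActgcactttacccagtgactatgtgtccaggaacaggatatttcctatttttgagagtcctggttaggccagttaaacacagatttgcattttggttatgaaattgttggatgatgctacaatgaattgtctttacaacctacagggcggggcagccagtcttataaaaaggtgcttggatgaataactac
Sprr2d: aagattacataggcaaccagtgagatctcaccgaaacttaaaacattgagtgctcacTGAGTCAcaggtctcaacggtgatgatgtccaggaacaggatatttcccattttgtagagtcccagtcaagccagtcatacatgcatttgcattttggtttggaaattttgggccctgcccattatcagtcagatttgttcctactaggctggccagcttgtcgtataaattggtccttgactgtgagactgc
Lor: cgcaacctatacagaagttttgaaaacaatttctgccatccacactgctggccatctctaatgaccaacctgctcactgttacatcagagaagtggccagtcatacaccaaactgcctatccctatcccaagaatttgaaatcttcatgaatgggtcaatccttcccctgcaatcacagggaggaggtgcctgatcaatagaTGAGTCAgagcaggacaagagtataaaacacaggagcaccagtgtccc
Ivl: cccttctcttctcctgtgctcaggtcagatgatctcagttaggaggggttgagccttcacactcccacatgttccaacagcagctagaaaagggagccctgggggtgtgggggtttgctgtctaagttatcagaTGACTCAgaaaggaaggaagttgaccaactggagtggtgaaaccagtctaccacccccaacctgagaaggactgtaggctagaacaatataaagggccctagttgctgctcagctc
In the 4 Sprr2 promoters the motif began 193 to 198 bases before the start site, and Sprr2k held it a second time, 182 bases before. In Lor it began 48 bases before the start and in Ivl 116 bases before. The Sprr2k and Sprr2h windows, whose genes differed in opposite directions, were identical at 80.6% of aligned positions, and those of Sprr2i and Sprr2d at 77.5%.

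Fos itself had log2 ratios of -4.01, -4.43 and -3.91 in Fos-deficient specimens 6, 8 and 9, against -1.30, -0.56 and -1.56 in Fos-floxed specimens 2, 3 and 5. The groups lay apart, with means of -4.11 ± 0.28 and -1.14 ± 0.52 (SD, n = 3 each) and a difference of -2.98 (SE 0.29). The limma adjusted p was 0.183, and the exact two-sided permutation p was 0.1, the smallest that the 20 assignments of 3 against 3 allow. The sources used here do not place the probe inside or outside the deleted part. Between 20811 and 26490 of the 37632 probes had a value on an array, and Pearson's r between arrays was above 0 in 66 of 66 pairs (0.705 to 0.963). Of a list of 15 tested keratinocyte genes all lay above the reference RNA, among them Krt17 (6.18 in Fos-deficient papillomas, 6.47 in Fos-floxed ones) and Dsp (6.07 and 6.10). Spot intensities were not analysed here, and the precision of the comparison is limited by n = 3 mice in each group.

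As a family the envelope genes stood above the reference RNA in every papilloma. They had a larger median size of difference, not scaled by spread, than all features, and most of them differed downward. Their median level was 4.81 in Fos-deficient papillomas, with gene means from 1.70 to 6.55, and 5.43 in Fos-floxed papillomas, with gene means from 1.60 to 6.89. The median difference was -0.27 over the 29 members and 0.03 over all 18861 features tested, and its median size without sign was 0.54 against 0.14. Over the 12006 named genes tested these medians were 0.01 and 0.16. Of the 29 members 11 were among the 50 features with the highest levels. A difference below 0 was found for 21 members (72.4%), against 44.9% of all features and 47.4% of the named genes. By family, 6 of 10 Sprr genes, 4 of 6 Lce genes, all 3 transglutaminases, both plakins and all 3 secreted and late proteins were below 0.

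No member passed the test. At an adjusted p under 0.05, limma called 0 of 18861 features (0.0%), while 2238 had an unadjusted p under 0.05 (11.9%), 859 higher (4.55%) and 1379 lower (7.31%) in Fos-deficient papillomas. Of the members, 6 had an unadjusted p under 0.05, 1 higher and 5 lower, and the adjusted p of the 29 members ran from 0.243 to 0.94. When all 12 arrays entered with the specimen as a random block, 397 features were called at an adjusted p under 0.05, 302 lower (1.6%) and 95 higher (0.504%), and none of the 29 members was among them. The differences below are measured values, none of which passed the test. In papilloma RNA, fewer keratinocytes at a late stage and less RNA of a gene per keratinocyte cannot be told apart.

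In 7 of 28 members the groups did not overlap. All 3 Fos-deficient papillomas lay below all 3 Fos-floxed ones for Sprr2k, Sprr2i, Cnfn, Tgm1 and Tgm5, and above them for Rptn and Sprr2h. Over all features with 6 values, 10.9% were higher and 9.09% lower in Fos-deficient papillomas without overlap, so that the lower members exceed the share over all features and the higher ones do not. The count rested on which specimens and dyes entered: it was 13 without specimen 6, 17 without specimen 9 and 12 without specimen 2, groups of 2 being easier to separate. On the Cy5 arrays alone the count was 1 of 29, and on the Cy3 arrays alone 11 of 28. The shares over all features given above do not apply to these other settings. Whether such counts are particular to the members was not examined.

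**Figure D1:**
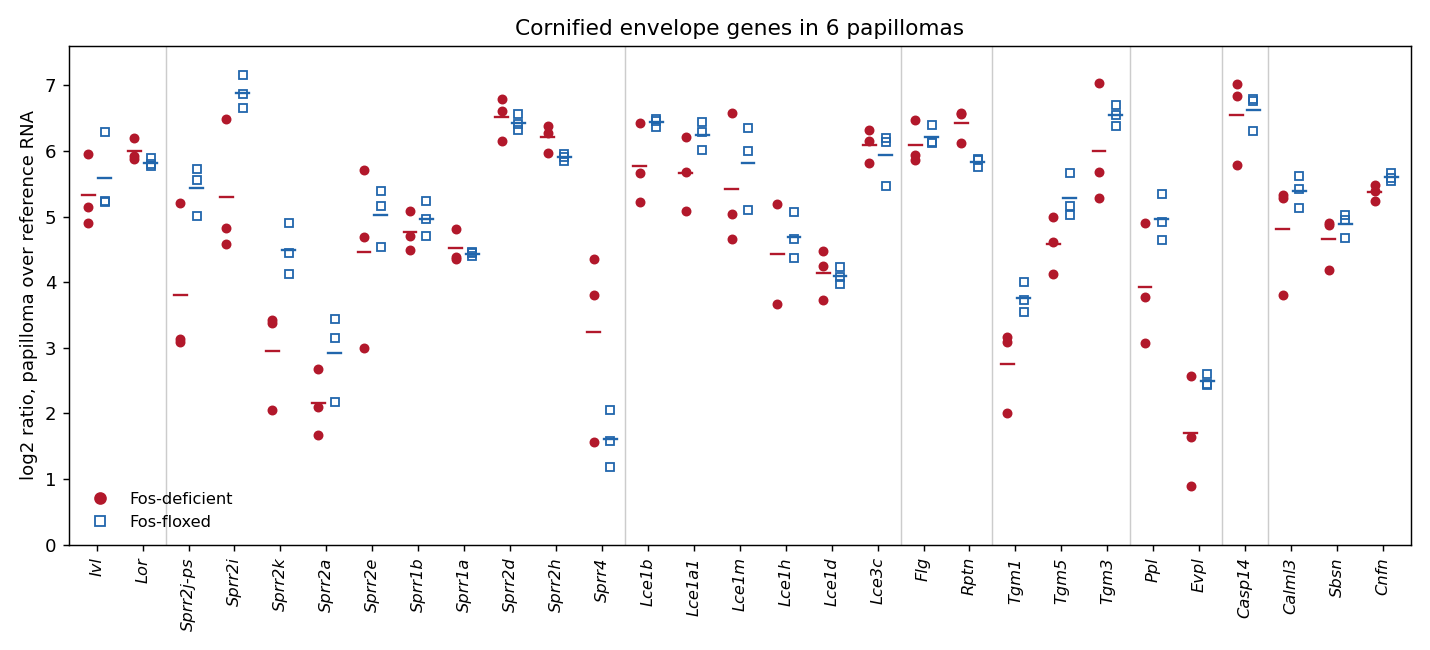
Level of each tested cornified envelope gene by papilloma. The vertical axis is the log2 ratio of papilloma over reference RNA, filled circles are Fos-deficient and open squares Fos-floxed specimens (the mean of 2 dye-exchanged arrays each), short bars are group means, and grey lines part the families. Sprr2k, Sprr2i, Tgm1, Tgm5 and Cnfn have every circle below every square, Rptn and Sprr2h the reverse, and circles are often more widely spread than squares.

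Involucrin, a protein of the early scaffold, and loricrin, the main bulk protein of the envelope, had groups that overlapped. Lor had log2 ratios of 5.87, 6.19 and 5.92 in Fos-deficient specimens 6, 8 and 9, against 5.89, 5.80 and 5.77 in Fos-floxed specimens 2, 3 and 5. The groups overlapped, and the difference was 0.18 (SE 0.11, limma adjusted p = 0.576). Ivl had 5.15, 4.90 and 5.95 in Fos-deficient and 5.23, 5.23 and 6.29 in Fos-floxed papillomas, with 1 specimen of each group standing above the other two. Its difference was -0.25 (SE 0.40, limma adjusted p = 0.809).

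The Sprr genes held both the most negative and the most positive difference of the family. SPRR proteins are short, proline-rich cross-bridges of the envelope, and those of the Sprr2 group are very similar in sequence, so that a probe can bind RNA of several copies and the assignment to 1 copy is uncertain. Sprr2k had log2 ratios of 3.38, 2.04 and 3.43 in Fos-deficient papillomas, against 4.45, 4.90 and 4.13 in Fos-floxed ones. All Fos-deficient specimens were lower, on average 2.91-fold, and the difference was -1.54 (SE 0.43, limma adjusted p = 0.278). Sprr2i had 6.49, 4.82 and 4.58 in Fos-deficient papillomas, against 6.87, 6.65 and 7.15 in Fos-floxed ones. Again every Fos-deficient value was lower, although specimen 6 was close to the lowest Fos-floxed one, and the difference was -1.59 (SE 0.52, 3.01-fold, limma adjusted p = 0.34). Sprr2i was also the member with the smallest adjusted p under any of the 14 other settings that gave members a value, 0.0614, and its difference was -1.59 in both dye orientations. The neighbouring Sprr2j-ps, which RefSeq lists as a pseudogene and which the array named Sprr2j, had 5.20, 3.09 and 3.14 in Fos-deficient papillomas, against 5.55, 5.73 and 5.01 in Fos-floxed ones. Specimen 6 lay within the Fos-floxed range and the other two far below it, for a difference of -1.62 (SE 0.62, limma adjusted p = 0.401).

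Not all Sprr2 genes were low. Sprr2h had 5.97, 6.37 and 6.28 in Fos-deficient papillomas, against 5.95, 5.91 and 5.85 in Fos-floxed ones. The Fos-deficient values were all higher, in specimen 6 by a narrow margin, and the difference was 0.30 (SE 0.12, limma adjusted p = 0.425). Sprr2d was nearly equal, with a difference of 0.08 (SE 0.18) and overlapping groups. Sprr2e was the most variable gene of the group, with 5.70, 4.69 and 2.99 in Fos-deficient papillomas, against 4.54, 5.38 and 5.16 in Fos-floxed ones. Its difference of -0.57 (SE 0.70) became 0.17 without specimen 9. Sprr2a, a symbol that matches 3 RefSeq genes, had a difference of -0.76 (SE 0.41) on the probe with values in all specimens. The median over the 7 tested Sprr2 genes was -0.76, with 5 below 0.

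Outside the Sprr2 group, Sprr4 had the most positive difference, 1.64 (SE 0.75, limma adjusted p = 0.474). It had 3.81, 4.35 and 1.57 in Fos-deficient papillomas, against 1.57, 1.18 and 2.06 in Fos-floxed ones. Specimens 6 and 8 were above all Fos-floxed papillomas and specimen 9 was within their range. Sprr1b differed by -0.21 (SE 0.21) and Sprr1a by 0.08 (SE 0.14), both with overlapping groups, and the sign of Sprr1a turned to -0.066 without specimen 9. A difference of at least 1 on the log2 scale in the lower direction was found for 1.74% of all features, and in the higher direction for 0.748%. Among the members Sprr2k, Sprr2i, Sprr2j-ps, Ppl and Tgm1 were in the first class and Sprr4 in the second.

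The Lce genes, whose proteins join the envelope last, overlapped between the groups in all 5 genes with complete values. The array named 5 of the 6 tested genes by old symbols of the Sprrl type and Lce1m as Lce5a, and they were updated through RefSeq. Lce1b had 5.66, 5.22 and 6.43 in Fos-deficient papillomas, against 6.36, 6.49 and 6.45 in Fos-floxed ones. Specimens 6 and 8 were low and specimen 9 was level with the Fos-floxed papillomas, which were nearly equal to each other, and the difference was -0.67 (SE 0.30, limma adjusted p = 0.473). Lce1a1 showed the same layout, with 5.69, 5.09 and 6.21 in Fos-deficient papillomas, against 6.01, 6.30 and 6.44 in Fos-floxed ones, and a difference of -0.59 (SE 0.30, limma adjusted p = 0.517). Lce3c had 5.82, 6.14 and 6.32 in Fos-deficient papillomas, against 6.19, 5.47 and 6.13 in Fos-floxed ones, with a difference of 0.16 (SE 0.24) that became -0.070 without Fos-floxed specimen 3. The remaining genes differed by -0.39 (Lce1m, SE 0.59), -0.27 (Lce1h, SE 0.51, fitted without specimen 8) and 0.05 (Lce1d, SE 0.20). In specimen 8 Lce1h had 1.89 with the papilloma in Cy5, the lowest of its array values, and none in Cy3. With that array the difference was -1.11 where 1 array sufficed for a specimen, and -0.90 in a limma fit of single arrays that took specimens as a random block (limma adjusted p = 0.62 and 0.643). The 2 probes of Lce1d went opposite ways, with differences of 0.66 (SE 0.33) and -0.56 (SE 0.41).

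A further 13 probes met the rule only after their symbols were updated, and their genes were kept out of the counts above. Of these 11 genes 9 were tested, 7 of them with a difference below 0. Lce3f had 4.21, 3.93 and 4.90 in Fos-deficient papillomas, against 5.78, 5.82 and 5.20 in Fos-floxed ones. All Fos-deficient values were lower, with a difference of -1.26 (SE 0.30, 2.39-fold, limma adjusted p = 0.242). Lce1f went the other way, with 5.70, 6.23 and 5.71 in Fos-deficient papillomas, against 5.31, 5.41 and 5.46 in Fos-floxed ones, and a difference of 0.49 (SE 0.16, limma adjusted p = 0.349). Here too the groups did not overlap. The other Lce genes of this kind differed by -0.30 (Lce1c), -0.33 (Lce1e), -0.36 (Lce1i) and -0.18 (Lce1l), the last pair fitted without specimen 8, where a value stood on 1 of the arrays. Lce1g and Lce3b had too few specimens with both arrays to test: Lce1g had 1.71 in Fos-deficient specimen 9, against 1.17 and 1.28 in Fos-floxed specimens 3 and 5, and Lce3b had 1.89, 3.87 and 1.52 in the Fos-floxed specimens and a value on 1 Fos-deficient array. Crct1, another gene of the complex, differed by -0.48 (SE 0.65), Asprv1, an aspartic protease that processes filaggrin, by 0.27 (SE 0.21), and the secreted protein dermokine (Dmkn) by -0.0039 (SE 0.17).

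Filaggrin and repetin are large proteins with a calcium-binding S100 domain at one end. Filaggrin bundles keratin filaments and is later broken down to amino acids that hold water. Repetin was the member with the smallest p. Rptn had 6.12, 6.56 and 6.58 in Fos-deficient papillomas, against 5.87, 5.86 and 5.76 in Fos-floxed ones. Every Fos-deficient value was higher, on average 1.51-fold, and the difference was 0.59 (SE 0.14, limma adjusted p = 0.243). Flg had 5.86, 5.94 and 6.47 in Fos-deficient papillomas, against 6.12, 6.13 and 6.39 in Fos-floxed ones, and its difference of -0.13 (SE 0.19) was within the spread. Its 2 probes with values in all specimens disagreed in sign, at -0.44 (SE 0.18) and 0.19 (SE 0.24).

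**Figure D2:**
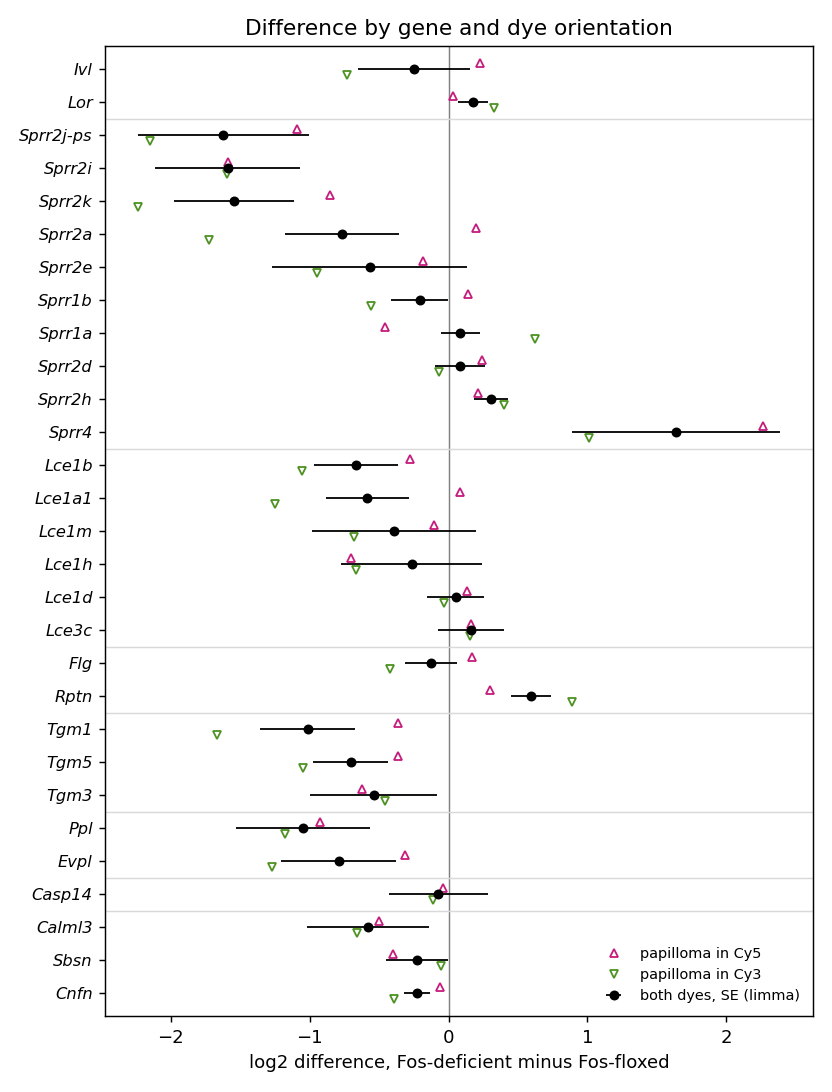
Difference of each tested member, with the dye orientations shown apart. The horizontal axis is the log2 difference, Fos-deficient minus Fos-floxed, black points with bars are the difference over both dyes with its SE from limma, and triangles are the differences with the papilloma in Cy5 (pointing up) or in Cy3 (pointing down). Most points lie left of 0, from -1.62 for Sprr2j-ps to 1.64 for Sprr4, and the Cy3 triangle is left of the Cy5 triangle in 22 of 28 genes with 12 values.

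The transglutaminases, the enzymes that cross-link the envelope, were all below 0, with a median of -0.71. Tgm1 is the membrane-anchored form. It had 3.08, 2.00 and 3.16 in Fos-deficient papillomas, against 3.54, 4.01 and 3.73 in Fos-floxed ones. All Fos-deficient values were lower, 2.02-fold on average, with a difference of -1.01 (SE 0.34, limma adjusted p = 0.352). Tgm5 had 4.99, 4.13 and 4.61 in Fos-deficient papillomas, against 5.02, 5.17 and 5.66 in Fos-floxed ones. The groups lay apart, by a narrow gap between specimens 6 and 2, and the difference was -0.71 (SE 0.27, limma adjusted p = 0.407). Tgm3 is activated by proteolysis in the cytosol. It had 5.29, 5.69 and 7.04 in Fos-deficient papillomas, against 6.38, 6.55 and 6.70 in Fos-floxed ones, with specimen 9 above and the others below all Fos-floxed papillomas and a difference of -0.54 (SE 0.46, limma adjusted p = 0.67).

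The plakins envoplakin and periplakin pair with each other at the membrane and anchor keratin filaments to the young envelope. Ppl had 3.78, 3.08 and 4.90 in Fos-deficient papillomas, against 4.91, 5.35 and 4.64 in Fos-floxed ones. Evpl had 1.64, 0.89 and 2.56 in Fos-deficient papillomas, against 2.44, 2.60 and 2.43 in Fos-floxed ones. For both genes specimens 6 and 8 were low and specimen 9 was within the Fos-floxed range. The difference was -1.05 (SE 0.48, limma adjusted p = 0.477) for Ppl and -0.79 (SE 0.41, limma adjusted p = 0.524) for Evpl.

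Caspase 14 takes part in the breakdown of filaggrin. Casp14 had 5.78, 6.84 and 7.02 in Fos-deficient papillomas, against 6.77, 6.79 and 6.31 in Fos-floxed ones. Specimen 6 alone was low, and the difference of -0.07 (SE 0.36, limma adjusted p = 0.94) became 0.31 without that specimen and 0.057 after quantile normalization. Among the late epidermal proteins, cornifelin (Cnfn) had 5.49, 5.24 and 5.39 in Fos-deficient papillomas, against 5.66, 5.59 and 5.54 in Fos-floxed ones. These values lay apart for the mean of its 2 probes, with a difference of -0.22 (SE 0.09, limma adjusted p = 0.432), but the probes differed by -0.80 (SE 0.30) and 0.35 (SE 0.17). Calml3, a calmodulin-like protein of epithelia, had 5.32, 3.81 and 5.29 in Fos-deficient papillomas, against 5.13, 5.41 and 5.61 in Fos-floxed ones, with specimen 8 alone far below the rest and a difference of -0.58 (SE 0.44). Suprabasin (Sbsn), secreted by suprabasal keratinocytes, had 4.19, 4.88 and 4.90 in Fos-deficient papillomas, against 4.95, 5.03 and 4.68 in Fos-floxed ones. Its difference was -0.23 (SE 0.22) and became 0.0048 without specimen 6.

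Members inside and outside the epidermal differentiation complex can be set side by side. Of the members 22 lie in the complex and 9 elsewhere, on chromosomes 2, 7, 10, 11, 13, 14 and 16. Inside the complex 12 of 20 tested genes were below 0, with a median of -0.23, and the differences ranged from -1.62 to 1.64. Outside it all 9 were below 0, with a median of -0.58 and a range from -1.05 to -0.07. Casp14 and Sbsn among them turned sign under the settings named above, and the probes of Cnfn had opposite signs. Genes that met the rule only after symbol update are in neither count. Outside the complex these were Asprv1 at 0.27 and Dmkn at -0.0039. In the order along the complex, the 3 most negative members, Sprr2i, Sprr2j-ps and Sprr2k, were next to each other among the measured genes, with Sprr2h on one side at 0.30 and Sprr1b on the other at -0.21. This contrast was not tested, since the genes are not replicates of a condition.

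**Figure D3:**
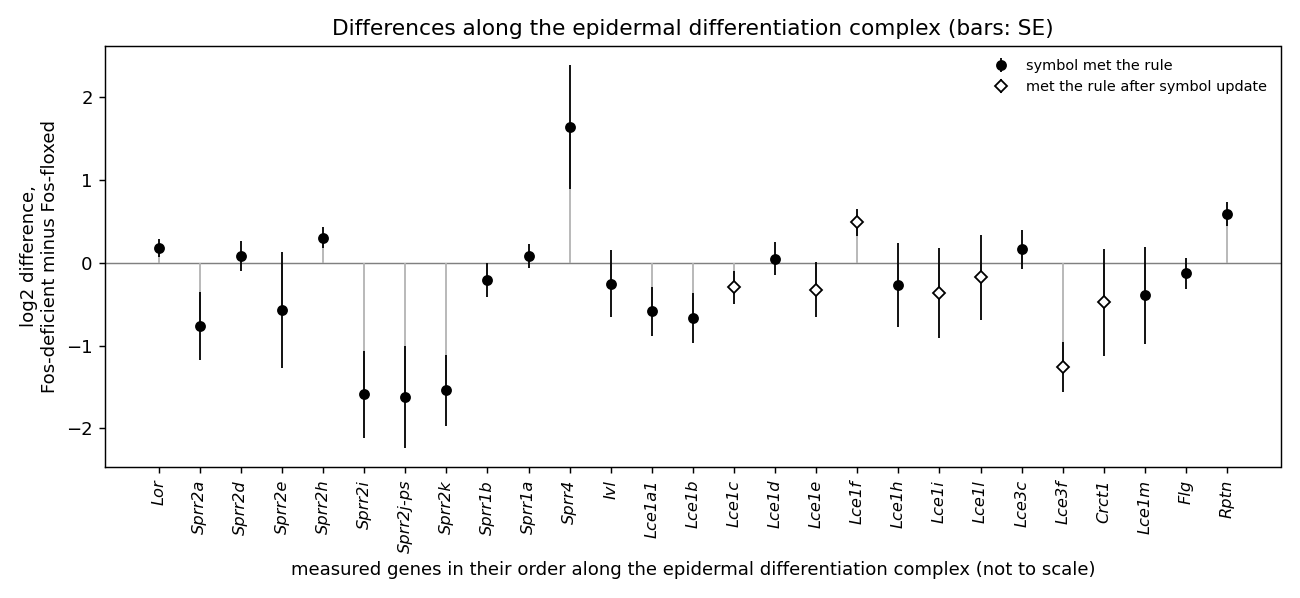
Differences of the measured genes of the epidermal differentiation complex in their order along chromosome 3, not to scale. The vertical axis is the log2 difference, Fos-deficient minus Fos-floxed, with bars for the SE from limma, filled circles are members and open diamonds genes that met the rule only after symbol update. Sprr2i, Sprr2j-ps and Sprr2k form a run of neighbours between -1.62 and -1.54, and Sprr4, Rptn and Lce1f stand highest.

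The papillomas of the Fos-deficient group were unlike each other. Measured against the Fos-floxed mean of each gene, the median over the 28 complete members was -0.36 in specimen 6, -0.52 in specimen 8 and 0.05 in specimen 9, against -0.04, 0.02 and 0.01 in Fos-floxed specimens 2, 3 and 5. Specimen 6 was below all Fos-floxed papillomas for 19 of 28 members and specimen 8 for 17, but specimen 9 for 8 and above all of them for 11. The same comparison over all features gave 31.2%, 32.4% and 28.6% below all Fos-floxed papillomas in specimens 6, 8 and 9, and 36.8%, 43.1% and 28.5% above them. The lowest Fos-deficient value was that of specimen 8 for 14 members, of specimen 6 for 11 and of specimen 9 for 3. Without specimen 9 the median difference of the members was -0.47, without Fos-floxed specimen 2 it was -0.43 and without specimen 6 it was -0.19. The 3 members with their lowest value in specimen 9 were Sprr2e, Sprr2i and Sprr4.

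**Figure D4:**
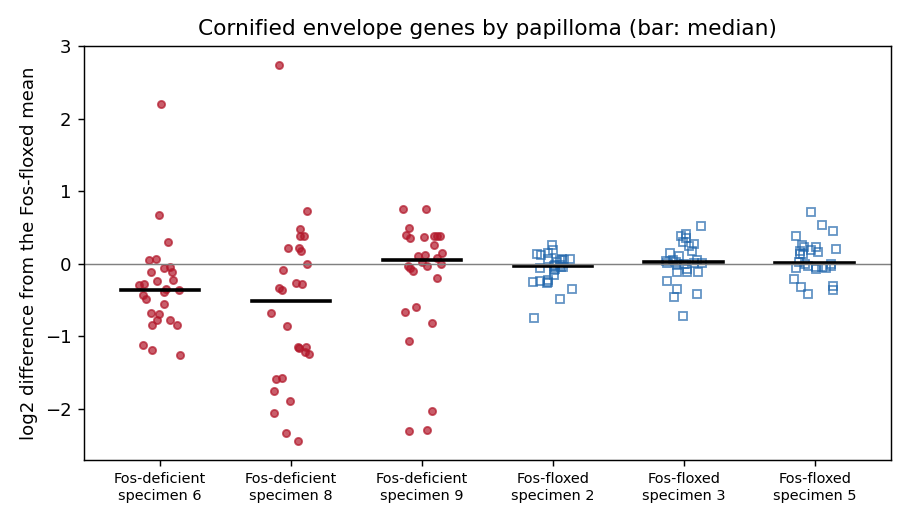
Each papilloma set against the Fos-floxed mean. Points are the 28 members with values in all specimens, spread sideways only to keep them apart, the vertical axis is the log2 difference from the Fos-floxed mean of the gene, and black bars are medians. Specimens 6 and 8 have medians of -0.36 and -0.52 and specimen 9 one of 0.05, and all 3 spread more widely than the Fos-floxed papillomas, whose mean sets the 0 line.

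Markers of other structures of the skin were compared in the same papillomas. Over all 18861 features tested, 10384 were above 0 and 8477 below. For a list of hair follicle genes, 12 of 14 were above 0 in the comparison, and the mean difference from the Fos-floxed mean was 0.38, 1.43 and 0.24 in specimens 6, 8 and 9, against -0.08 to 0.06 in the Fos-floxed papillomas. Among these genes Dlx3 averaged 2.60 in Fos-deficient and 3.29 in Fos-floxed papillomas, and Tchh, measured on both arrays of specimens 6, 8, 3 and 5 only, averaged 3.25 and 1.62. A further 7 hair keratins had too few values to test. Krt25, Krt27, Krt33b, Krt34, Krt35, Krt71 and Krt81, named after their values were seen, had levels of 3.87 to 5.10 in specimen 6 and 5.05 to 6.56 in specimen 8. Where they were measured elsewhere, in specimens 9 and 5, they had 1.03 to 2.35, and none was measured in Fos-floxed specimens 2 and 3. For sebaceous gland genes, 9 of 15 were above 0, and the means were 0.54, 1.05 and 0.31 in specimens 6, 8 and 9, against -0.11 to 0.06. The 6 sebaceous gland genes below 0 include Fabp4 (-1.08, SE 0.28) and Dgat2 (-1.59, SE 0.56, fitted without specimen 9), named after their values were seen. For keratinocyte genes, 9 of 15 were below 0, and the means were -0.46, -0.45 and -0.17 in specimens 6, 8 and 9, against -0.01 to 0.02. Specimen 8 thus had the lowest envelope genes and the highest hair follicle and sebaceous gland genes of the 3. Fibroblast genes, with 13 of 14 above 0, ranged by specimen over 0.03 to 0.40 in the Fos-deficient group, against -0.24 to 0.27 in the Fos-floxed one, and endothelial genes over -0.84 to 0.23, against -0.23 to 0.24. Above 0 in the comparison were also 5 of 5 melanocyte, 6 of 9 macrophage and neutrophil, 3 of 4 T cell and 5 of 6 skeletal muscle genes. By the mean over both groups no tested gene of the keratinocyte, hair follicle, melanocyte or endothelial list lay below the reference RNA, while 4 of 15 sebaceous gland and 6 of 14 fibroblast genes did. The part of these cells in the differences of the envelope genes was not tested. Within the keratinocyte list the groups did not overlap in 6 of 14 genes, 5 lower (9.09% over all features) and 1 higher (10.9%). In limma 0 of 15 had an adjusted p under 0.05. An unadjusted p under 0.05 was found for 6, 5 lower (7.31% over all features) and 1 higher (4.55%). The lower ones, named after their values were seen, were genes of attachment and of the basal layer: Col17a1 (-1.44, SE 0.24), Itga6 (-1.36, SE 0.41) and Itgb4 (-1.08, SE 0.32) of the hemidesmosome, the desmosomal cadherin Dsg3 (-1.23, SE 0.14) and the transcription factor Trp63 (-0.41, SE 0.14). In Dsp (-0.03, SE 0.20) and Perp (-0.15, SE 0.16), also of the list, the groups overlapped. Keratins of the list went both ways. Krt17 differed by -0.28 (SE 0.18) and Krt1 by 0.19 (SE 0.18). Krt15 was the 1 gene higher without overlap (0.14, SE 0.08). Krt16, fitted without specimen 6, differed by 0.66 (SE 0.10) and Krt6a by 0.40 (SE 0.31). The basal keratins Krt5 and Krt14 differed by 0.15 (SE 0.09) and 0.13 (SE 0.17), and Krt10, a keratin of the layer above, by -0.04 (SE 0.12).

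The dye mattered for the size of the differences. With the papilloma in Cy5, 16 of 28 members were below 0 and the median was -0.08; with the papilloma in Cy3, 22 of 28 were below 0 and the median was -0.61. The same medians over all features were 0.03 and 0.0030. A member's Cy3 difference was lower than its Cy5 difference in 22 of 28, and both had the same sign in 20 of 28, 15 below and 5 above 0, against 73.9% of all features with the same sign. Signs were opposite for Flg, Ivl, Lce1a1, Lce1d, Sprr1a, Sprr1b, Sprr2a and Sprr2d. Single arrays show the spread behind this. With the papilloma in Cy5, Tgm1 had 3.90, 2.71 and 3.73 in Fos-deficient specimens 6, 8 and 9, against 3.04, 4.68 and 3.71 in Fos-floxed specimens 2, 3 and 5, and the groups overlapped. In Cy3 it had 2.27, 1.29 and 2.59 in the Fos-deficient specimens, against 4.04, 3.34 and 3.76, and they did not. Sprr2i had 6.60, 4.84 and 4.54 in the Fos-deficient specimens, against 6.92, 6.80 and 7.02, in Cy5, and 6.39, 4.81 and 4.62, against 6.81, 6.50 and 7.29, in Cy3; it was the member whose groups lay apart in both. Each specimen had 1 array of either orientation, so a dye effect common to both groups cancels in their difference. A dye effect that differs between the groups does not cancel. In Cy3, 22255, 20811 and 21792 probes had a value in specimens 6, 8 and 9, against 24730, 23266 and 25287 in specimens 2, 3 and 5. In Cy5 the numbers were 24178, 26029 and 24147, against 22024, 26490 and 25132. The part of these numbers in the differences was not tested.

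Of other genes of cornification that the naming rule does not hold, 69 of a list of 86 were tested. None passed an adjusted p under 0.05 in limma, 16 had an unadjusted p under 0.05, 2 higher (4.55% over all features) and 14 lower (7.31%). The groups did not overlap in 17 of 64, 2 higher (10.9% over all features) and 15 lower (9.09%). Below 0 lay 53 of 69 (76.8%, against 44.9% over all features), with a median of -0.26, close to that of the members. Krt1, Krt10, Dsp and Trp63 are in this list and in the keratinocyte list above, and Padi3 is in this list and in that of the hair follicle.

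The enzymes that make or carry the lipids bound to the envelope were below 0 in 13 of 14, with a median of -0.54. Ugcg, which adds glucose to ceramide, had -0.05, -0.84 and -1.24 in Fos-deficient papillomas, against 1.13, 1.25 and 0.83 in Fos-floxed ones. Every Fos-deficient value was lower, with a difference of -1.78 (SE 0.32, limma adjusted p = 0.21). Alox12b, a lipoxygenase that oxidises linoleate of ceramides, had 1.41, 1.05 and 2.54 in Fos-deficient papillomas, against 3.13, 3.56 and 2.88 in Fos-floxed ones, a difference of -1.52 (SE 0.42, limma adjusted p = 0.276). The groups lay apart here too, and likewise for Abca12, which loads lipids into lamellar granules, with a difference of -0.65 (SE 0.23, limma adjusted p = 0.379).

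Among 36 other envelope and precursor proteins, 28 were below 0, with a median of -0.23. Slurp1, a small secreted protein of the upper epidermis, went the other way: it had 2.55, 2.67 and 4.41 in Fos-deficient papillomas, against 0.07, 0.26 and 0.73 in Fos-floxed ones. The groups were far apart, with a difference of 2.85 (SE 0.54, limma adjusted p = 0.212). Klk7, a protease that sheds corneocytes, and Spink5, an inhibitor of such proteases, were both lower in every Fos-deficient papilloma, with differences of -0.89 (SE 0.21, limma adjusted p = 0.237) and -1.12 (SE 0.34, limma adjusted p = 0.31). Of 4 suprabasal keratins Krt2, a keratin of the upper layers, had 5.83, 6.10 and 3.47 in Fos-deficient papillomas, against 1.28 and 0.82 in Fos-floxed specimens 2 and 5. Specimen 3 did not have a value on both arrays and was left out, and the difference was 4.09 (SE 0.88, limma adjusted p = 0.242). Krt80 differed by -0.27 (SE 0.09) with groups that lay apart, and Krt1 by 0.19 (SE 0.18) with groups that overlapped.

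Of 15 transcription regulators of the epidermis 10 were below 0, with a median of -0.13. Arnt had -1.44, -1.87 and -1.16 in Fos-deficient papillomas, against -0.48, -0.17 and -0.92 in Fos-floxed ones, a difference of -0.96 (SE 0.26, limma adjusted p = 0.269). Prdm1, a transcriptional repressor, differed by -0.59 (SE 0.18, limma adjusted p = 0.305), and in both genes the groups lay apart. Ovol1 differed by -0.52 (SE 0.14, limma adjusted p = 0.298), fitted without specimen 8. The AP-1 genes Fosb, Fosl2 and Junb differed by 0.02 (SE 0.16), 0.01 (SE 0.20) and 0.11 (SE 0.76), named here after their values were seen. The list also held Jun, Jund and Fosl1, for which no difference is given here, so the AP-1 genes are not described as a set.

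The promoter sequences shown above can be set beside these values. Searched on both strands over the 250 bases before the start, TGACTCA was found in 9 of 28 member genes with a RefSeq promoter: Sprr1a, Sprr2d, Sprr2e, Sprr2f, Sprr2h, Sprr2i, Sprr2k, Lor and Ivl. Over all 27025 genes with a promoter in the table the share was 5.16%. Sprr2k and Sprr1a held it at 2 places. The windows of the Sprr2 genes with the motif were alike, from 60.1% (Sprr2h and Sprr2f) to 89.3% (Sprr2e and Sprr2d) of aligned positions. These genes are therefore not independent cases, and the counts were not tested against the shares over all genes. The octamer ATGCAAAT, also searched on both strands, was found in 6 of 28 members, all of them Sprr2 genes, against 1.81% of all genes. TATAAA, searched on the strand of the gene alone, was found in 16 of 28, against 8.94%. None of these motifs overlapped another in the 6 promoters shown.

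Members with and without the motif are set side by side here, and this contrast was not tested. Of the 8 tested members with TGACTCA 4 were below and 4 above 0, with a median of -0.08 and a range from -1.59 to 0.30. Of the 17 tested members without it in this window 13 were below 0, with a median of -0.23 and a range from -1.01 to 1.64. Sprr2j-ps (-1.62), Ppl (-1.05), Evpl (-0.79) and Calml3 (-0.58) had no promoter sequence to search and are in neither set. The 4 Sprr2 promoters printed above carry the motif at nearly the same place. The genes behind them had differences of -1.59 (Sprr2i), -1.54 (Sprr2k), 0.30 (Sprr2h) and 0.08 (Sprr2d). They were chosen for standing at different ends of the comparison, so their unlike differences were fixed by that choice. Sprr2e, not printed, held the motif 193 bases before the start and differed by -0.57. Which Sprr2 copy a probe detects is uncertain. A match is a description of these letters and not of binding, and a window without one says nothing about the factor.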

How the data were processed

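Papilloma RNA was isolated with TRIzol and amplified with T7 polymerase, per the labels' protocols, and hybridised against a reference RNA on 12 two-colour arrays, with 2 dye-exchanged arrays for each of 6 mice. The deposited values are log ratios, 1 per probe and array, taken here as log2. The sources used here state neither background correction nor normalization, log base or why cells are empty; the range of the values does not tell log2 from a natural log, so folds hold for base 2. The dyes' labels do not settle the direction of the deposited log2 ratios. All 66 array pairs correlated positively and keratinocyte genes lay above 0, so papilloma over reference is the likely direction and no sign was turned. The planned rule would have turned the Cy3 arrays only where they correlated negatively.

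Probe symbols came from the platform annotation and were updated through RefSeq (GRCm38.p6), which left 12801 of 16964 as they were, updated 4006, and found several genes for 58 and none for 99. Both arrays of a specimen were averaged, so that n counts mice. Probes of a gene measured in all specimens were averaged, and genes and unnamed probes (6855) with values in at least 2 specimens of each group were tested, 18861 features in all. limma 3.58.1 (R 4.3.3, lmFit and eBayes, two-sided, Benjamini-Hochberg over all features tested) compared Fos-deficient with Fos-floxed papillomas, and its code was tested on simulated data. The random block used duplicateCorrelation (statmod 1.5.0), with a dye term. Motifs were searched and tables drawn up in Python 3.11.15 (pandas 2.3.3, numpy 2.4.6), and plots were drawn with matplotlib 3.10.9.

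Every member is named; values by specimen are given for the 3 members of each family with the smallest unadjusted p, for every member whose groups do not overlap and for Sprr2e, Sprr4 and further members that were chosen after their values were seen. Of the other cornification genes the 3 with the smallest unadjusted p in each of 4 groups are named. Members, lists and these rules were chosen with earlier results of these data known, so lists are described by counts and medians, without a test. The 15 alternatives tried were scaling, missing values, probes, dye, replicate structure, variance model and leaving out each specimen.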

Additional observations from a re-analysis of the deposited data

How the results depend on the processing

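No paired analysis was possible because the groups share no replicate number. The median difference of the members was -0.66 with the papilloma in Cy3 alone and -0.10 in Cy5 alone, and lay between -0.47 and -0.19 when single specimens were left out. It was -0.43 with probes in place of gene means, and -0.39 both with specimen values from 1 or 2 arrays and with the random block. No setting called a member. The number of features past an adjusted p under 0.05, 0 in the reported fit, was 1 with Cy3 alone and 397 with all 12 arrays and the specimen as a random block (correlation 0.609), which also took Fos past the threshold (-2.98, adjusted p 0.0012). The number of members with groups that do not overlap was 1 of 29 with Cy5 alone, 11 with Cy3 alone and 0 of 28 over all 12 arrays. It was 7 to 17 when single specimens were left out. Shares over all features were not drawn up for these settings. Of 29 members 17 kept their sign in all settings that gave them a value and 12 did not. With Cy5 alone the sign turned for Flg (0.17), Ivl (0.23), Lce1a1 (0.080), Sprr1a (-0.46), Sprr1b (0.14) and Sprr2a (0.16), and with Cy3 alone for Lce1d (-0.035) and Sprr2d (-0.069). Casp14 turned to 0.057 after quantile normalization. Leaving out single specimens moved Casp14 between -0.31 and 0.31, Ivl between -0.56 and 0.10, Lce1d between -0.11 and 0.26, Lce3c between -0.070 and 0.30, Sbsn between -0.35 and 0.0048, Sprr1a between -0.066 and 0.17, Sprr2d between -0.051 and 0.27 and Sprr2e between -1.19 and 0.17. The cause was not tested.

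With 3 mice in each group the smallest exact p is 0.1, and the prior and residual spread of the fit set what limma can call. Probe sequences and spot signals were not analysed here, so cross-hybridisation among Sprr2 or Lce copies and signal near background were not tested.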
